A study of Mus musculus with 23 samples.

Results

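A set of 9 genes of chromosome 11 that lie within 9 Mb of Sarm1, the gene deleted in the Sarm1KO line, were examined in mouse bone: Ccdc92b, Xaf1, Vtn, Tlcd2, Pitpnm3, Spns3, Alox15, Smg6, and Slc46a1. They had been chosen by name because their RNA differed between KO and WT libraries in earlier results of these same data, so the genotype difference in each of them is a description and carries no test. All 9 were found in the count table by Gene ID and all 9 passed the filter on low counts, among 287 tested genes within 9 Mb of Sarm1, 1198 tested genes on chromosome 11, and 14364 tested genes in all. RNA-Seq had been performed on marrow-depleted femur and tibia of 23 female mice, 1 library per mouse, of the strain labelled C57BL6/N and aged 11 weeks. Of these mice, 12 were labelled Sarm1-KO, 6 of them with streptozotocin-induced type 1 diabetes (KO T1D) and 6 given saline (KO Control). The WT mice comprised 6 with type 1 diabetes (WT T1D) and 5 given saline (WT Control). Streptozotocin, a drug that destroys pancreatic β cells, had been given at 100 mg/kg from 8 weeks of age, and bones were taken after 3 weeks of diabetes. The deletion was global. The KO line was kept on C57BL/6NTac, and the WT mice of the study were littermates from heterozygous breeding or were bought from the supplier of that strain. The labels do not say which WT mouse was of which kind. In the WT groups, 1 Control mouse and 3 T1D mice carry numbers beginning with A17, and all other mice, KO mice included, carry numbers from A36 to A39. These number series are not explained by the labels.

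SARM1 is an enzyme that consumes NAD+ and promotes the degeneration of injured axons. When a gene is deleted in embryonic stem cells of one mouse strain and the line is then backcrossed to another strain, the DNA on either side of the deleted gene is the last to be replaced, because recombination between close positions is rare. Genes next to the deletion can therefore differ between KO and WT mice in their own sequence, apart from any effect of the missing protein. The question addressed here was which genes near Sarm1 differed in RNA between the genotypes, with and without T1D. No DNA was measured, so loss of Sarm1 and any linked difference in DNA cannot be told apart in these libraries.

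The members do unrelated jobs. Vtn encodes vitronectin, a secreted adhesive glycoprotein that is made mainly by the liver and binds integrins on osteoclasts and other cells. Xaf1 encodes XIAP-associated factor 1, an interferon-induced protein that opposes the caspase inhibitor XIAP. Alox15 encodes the 12/15-lipoxygenase of eosinophils and resident macrophages, which oxygenates arachidonic and linoleic acid. Pitpnm3 belongs to the phosphatidylinositol transfer proteins, Spns3 to the spinster family of membrane transporters, and Tlcd2 to the TLC domain proteins of cell membranes. Slc46a1 encodes the proton-coupled folate transporter, and Smg6 the endonuclease of nonsense-mediated mRNA decay. Ccdc92b encodes a coiled-coil protein about which little is known.

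Promoter sequences from RefSeq (GRCm38.p6) were matched for 6 of the 9 members, and none was matched for Ccdc92b, Spns3, or Alox15. The sequences of the members with the clearest separation, and that of Sarm1, whose start lies 1304 bases from the start of Vtn on the opposite strand, are given to show which of 4 common elements each of them holds. They are written 5′ to 3′ on the strand of the gene and end at the gene model, and capitals mark matches on either strand to a TATA box with the letters TATAAA, to the promoter element that is named after its letters CCAAT, or to a GC box with the letters GGGCGG.
Vtn, chr11:78498870-78499119, + strand: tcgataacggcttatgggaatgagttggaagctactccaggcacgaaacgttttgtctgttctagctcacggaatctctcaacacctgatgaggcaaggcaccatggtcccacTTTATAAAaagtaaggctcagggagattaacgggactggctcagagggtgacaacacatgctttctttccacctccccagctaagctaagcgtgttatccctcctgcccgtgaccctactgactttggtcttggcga
Sarm1, chr11:78497817-78498004, − strand: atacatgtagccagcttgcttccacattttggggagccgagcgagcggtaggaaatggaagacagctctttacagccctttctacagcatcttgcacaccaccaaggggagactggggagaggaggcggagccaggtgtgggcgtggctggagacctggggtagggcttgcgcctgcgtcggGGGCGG
Xaf1, chr11:72301379-72301460, + strand: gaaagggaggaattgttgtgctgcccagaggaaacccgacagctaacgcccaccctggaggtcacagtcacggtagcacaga
Tlcd2, chr11:75467800-75468023, + strand: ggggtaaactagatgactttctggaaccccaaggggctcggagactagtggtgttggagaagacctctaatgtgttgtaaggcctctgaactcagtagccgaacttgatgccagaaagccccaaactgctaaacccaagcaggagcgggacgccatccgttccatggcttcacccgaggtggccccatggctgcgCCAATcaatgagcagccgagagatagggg
Pitpnm3, chr11:72135890-72136139, − strand: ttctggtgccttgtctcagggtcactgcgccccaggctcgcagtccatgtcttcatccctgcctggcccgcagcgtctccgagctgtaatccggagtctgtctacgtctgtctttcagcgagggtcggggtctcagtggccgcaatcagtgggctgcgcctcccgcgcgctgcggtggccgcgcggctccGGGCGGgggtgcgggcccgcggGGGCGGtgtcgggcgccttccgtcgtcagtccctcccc
In the 250 bases before the listed start, Vtn held the TATA box letters on both strands, in matches that overlap (12.4% of 32851 mouse promoters held TATAAA in such a window). Tlcd2 held the letters CCAAT (33.8% of promoters). Pitpnm3, Smg6, Slc46a1, Xaf1, and Sarm1 held GC boxes (32.7% of promoters). In Xaf1 that match fell inside the gene model and is not shown. None of these windows held the core of the interferon-stimulated response element, GAAANNGAAA, which 2.98% of promoters held. A match to letters is not evidence of a working site.

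Sarm1 itself (chr11:78470273-78497816, − strand) was examined first, as a check of the labels. It had 5 to 32 counts in each library. KO mice had levels from 0.268 to 1.57 CPM in Control (mean 0.799 ± 0.503, SD, n = 6) and from 0.811 to 1.46 CPM in T1D (mean 1.19 ± 0.259, n = 6). WT mice ranged from 0.845 to 1.76 CPM in Control (mean 1.17 ± 0.403, n = 5) and from 0.340 to 1.21 CPM in T1D (mean 0.687 ± 0.293, n = 6), so that all 4 groups overlapped. The KO minus WT difference in log2 was -0.55 ± 0.378 (SE) in Control mice and 0.78 ± 0.367 in T1D mice (edgeR adjusted p = 0.999 and 0.281). Sarm1 RNA was therefore not a check that separated the labels at this depth, and KO below means mice labelled KO. Reads over single exons were not analysed here. Total counts per mouse ranged from 16938101 to 20135592, and levels in CPM are counts scaled to the total of each library with edgeR's TMM factors. In WT T1D, mice A3905 and A3906 stood apart from the other mice of the series. All 8 osteoblast and all 5 osteocyte markers were detected in every group. In A3905 and A3906 the summed level of the 8 osteoblast markers was 6047 and 4593 CPM, against 52758 CPM or more in the other 21 mice, and the summed level of 11 erythroid markers was 180333 and 178065 CPM, the highest of all mice. Their osteocyte sums, 438 and 467 CPM, were not low in the same way, since the group medians ran from 417 to 533 CPM. The summed level of 8 neutrophil markers was 40882 and 37023 CPM, against 36043 CPM or less in the other groups. The values that moved most without A3905 and A3906 are given both ways.

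The 9 genes lay on both strands and on 1 side of Sarm1, except Vtn. Counted toward the centromere, they were Slc46a1 (chr11:78465701-78471945, + strand), Tlcd2 (chr11:75468024-75470899, + strand), Smg6 (chr11:74925854-75164448, + strand), Ccdc92b (chr11:74619594-74641516, + strand), Spns3 (chr11:72498153-72550509, − strand), Xaf1 (chr11:72301461-72313733, + strand), Pitpnm3 (chr11:72047528-72135889, − strand), and Alox15 (chr11:70344147-70390538, − strand). Vtn (chr11:78499120-78502325, + strand) lay on the other side, next to the start of Sarm1. The 3′ ends of Slc46a1 and Sarm1 overlap by 1673 bases in RefSeq, so some reads may belong to either gene. The library preparation marked strand, and whether the counting used it is not given in the sources used here. Smg6 spans 6 smaller RefSeq genes, among them Srr and Hic1. Of the tested genes within 9 Mb, 180 lay on the centromere side of Sarm1, 8 of them members, and 106 on the telomere side, 1 of them a member. The farthest member, Alox15, was 8.08 Mb from Sarm1. Epx, the eosinophil peroxidase gene, lay just beyond the 9 Mb limit at 9.37 Mb on the other side. Its KO minus WT differences were 0.591 in Control mice and 1.17 in T1D mice, neither with an adjusted p under 0.05 in edgeR. The 9 eosinophil markers, Epx among them, were all higher in KO bone, with median differences of 0.633 and 0.982. Without A3905 and A3906, 8 were higher and 1 was lower in T1D mice, with a median of 1.006. Ear1, on chromosome 14, had 0.900 and 1.27 with all mice.

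**Figure D1:**
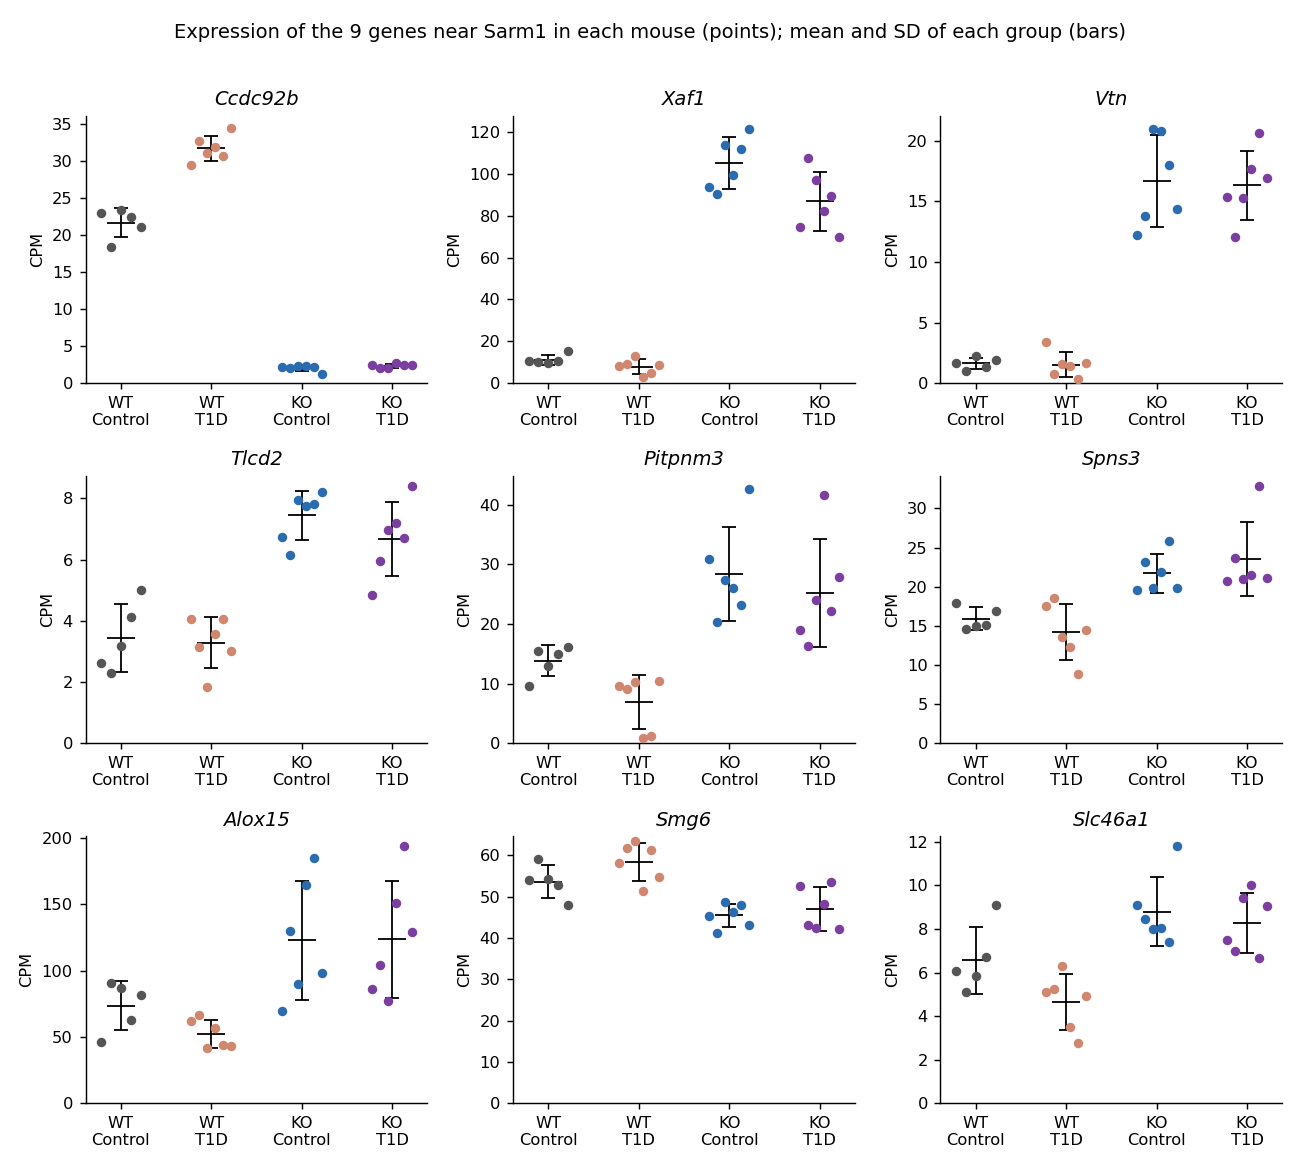
Level of each of the 9 genes in CPM (y axis, linear from 0) in every mouse of the 4 groups (x axis); points are mice, and bars are the mean and SD of the group. Ccdc92b was at 18.4 CPM or more in WT mice and at 2.70 CPM or less in KO mice, while Xaf1 and Vtn were high in KO mice and low in WT mice.

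Ccdc92b was far lower in KO bone. It had 22.9, 18.4, 23.3, 22.4, and 21.0 CPM in the 5 WT Control mice. In WT T1D its lowest, median, and highest values were 29.4, 31.4, and 34.3 CPM. In KO Control they were 1.21, 2.22, and 2.31 CPM, and in KO T1D they were 2.02, 2.41, and 2.70 CPM. Every KO mouse was far below every WT mouse, and between 22 and 50 counts remained in each KO library. The KO minus WT difference in log2 was -3.40 ± 0.119 (SE) in Control mice, a 10.5-fold lower level, and -3.75 ± 0.116 in T1D mice, a 13.4-fold lower level. Its 2 closest tested neighbours were Rap1gap2 and Cluh, whose ends toward Sarm1 each lay about 0.03 Mb from its own. They differed by 0.277 ± 0.138 and -0.182 ± 0.0852 in Control mice. In bulk bone, fewer cells of a type and less RNA per cell cannot be told apart, here and in the results that follow.

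Xaf1, the interferon-induced antagonist of XIAP, was higher in KO bone. WT Control mice had 10.5, 10.04, 9.49, 10.8, and 15.3 CPM. WT T1D mice ranged from 3.00 to 13.2 CPM with a median of 8.44 CPM, and the 2 lowest were A3905 at 3.00 and A3906 at 5.09 CPM. KO Control mice ranged from 90.5 to 122 CPM with a median of 106 CPM, and KO T1D mice from 69.8 to 108 CPM with a median of 85.8 CPM. No KO mouse came near the WT range. The log2 difference was 3.22 ± 0.235 (9.35-fold) in Control mice and 3.46 ± 0.223 (11.0-fold) in T1D mice, and the latter was 3.15 ± 0.165 without A3905 and A3906. On the length-scaled TPM, which allows genes to be compared, Xaf1 stood at 11.4 ± 2.85 TPM (SD, n = 5) in WT Control, below Alox15, Smg6, and Spns3, and at 78.8 ± 11.5 TPM (n = 6) in KO Control, where it did not differ from Alox15 (73.4 ± 23.2 TPM) beyond the spread between mice.

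Vtn, the vitronectin gene that starts beside Sarm1, was also higher in KO bone. WT Control mice had 1.70, 1.04, 2.26, 1.30, and 1.87 CPM, and WT T1D mice ranged from 0.347 to 3.43 CPM with a median of 1.51 CPM. KO Control mice ranged from 12.2 to 21.0 CPM with a median of 16.2 CPM, and KO T1D mice from 12.1 to 20.6 CPM with a median of 16.1 CPM. The lowest KO mouse was above the highest WT mouse in both backgrounds. The log2 difference was 3.35 ± 0.324 (10.2-fold) in Control mice and 3.40 ± 0.303 (10.6-fold) in T1D mice. WT mice had only 6 to 61 counts, so the fold rests on low WT values. Vitronectin is chiefly a liver product, and the summed level of 7 liver markers, albumin among them, was between 0.154 and 1.95 CPM in the KO mice, with 3 of the 7 at 0 in each KO group. In WT mice the sum ran from 0.110 to 7.33 CPM in Control and from 0.490 to 49.2 CPM in T1D, with 2 and 1 of the 7 at 0. In TPM, Vtn was the lowest member in WT Control (1.44 ± 0.460) and stood near Smg6 in KO Control (14.1 ± 2.71, against 14.8 ± 1.12).

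**Figure D2:**
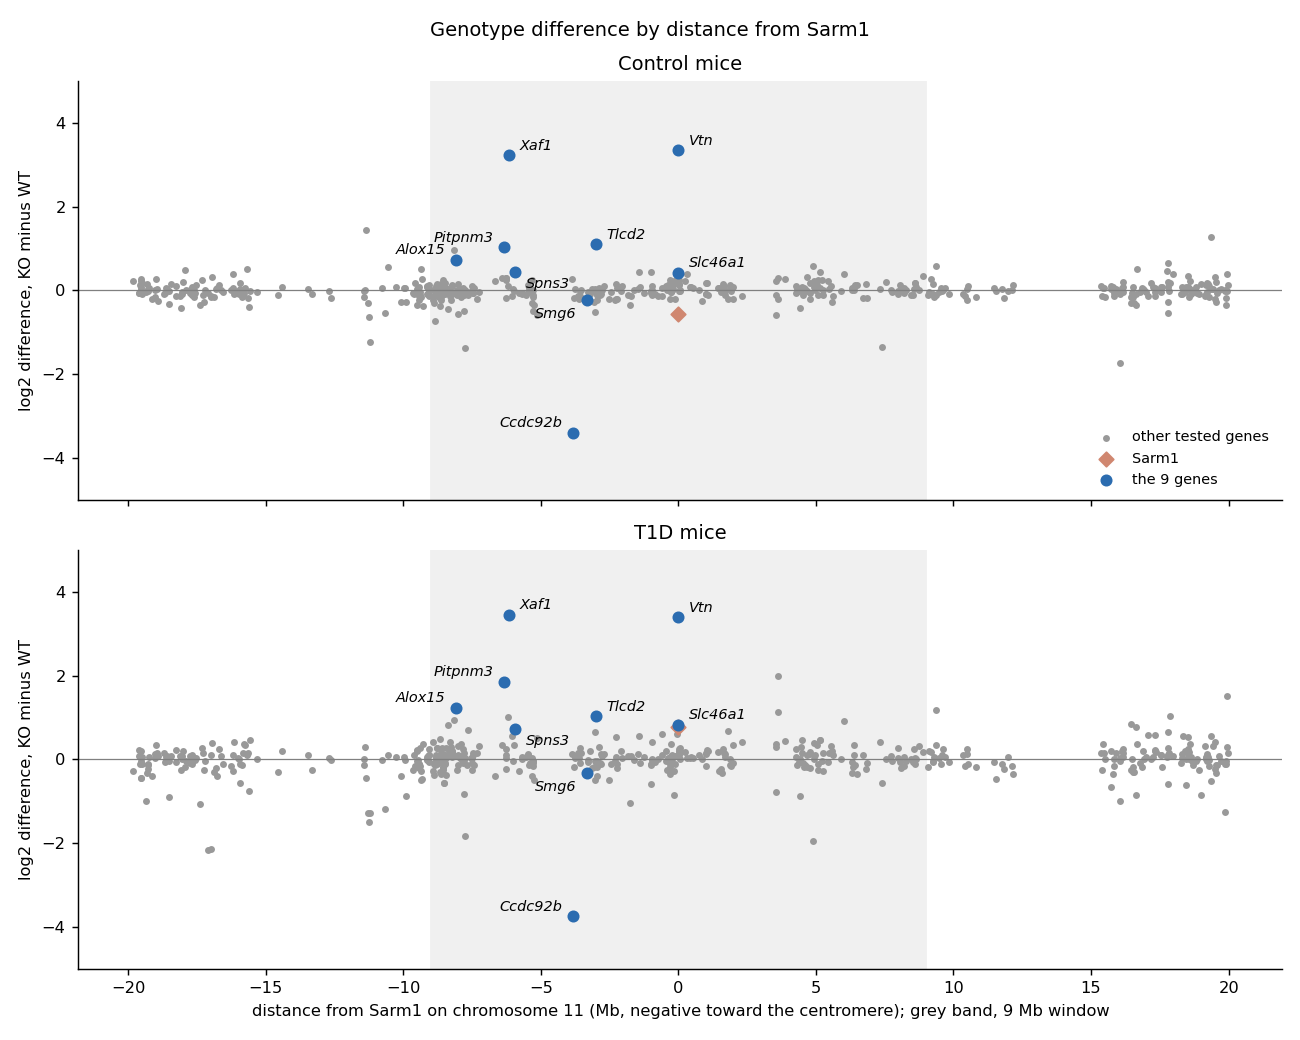
Genotype difference in log2 (y axis, KO minus WT) of every tested gene within 20 Mb of Sarm1 on chromosome 11 by its distance in Mb (x axis), in Control mice (upper) and T1D mice (lower); blue points are the 9 genes, the diamond is Sarm1, which lies behind Slc46a1 in the lower plot, and the band is the 9 Mb window. Ccdc92b, Xaf1, and Vtn stand beyond 3 log2 units in both plots. Their nearest tested neighbours have smaller differences, the largest of them 1.01 in Slc13a5 beside Xaf1 in the lower plot.

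Tlcd2 and Pitpnm3 were higher in KO bone by a smaller factor. Tlcd2 had 2.63, 2.30, 3.16, 4.11, and 5.01 CPM in WT Control and from 1.84 to 4.05 CPM in WT T1D, against 6.16 to 8.21 CPM in KO Control and 4.85 to 8.39 CPM in KO T1D. The groups did not overlap within either background, although 1 WT Control mouse, at 5.01 CPM, was above 1 KO T1D mouse, at 4.85 CPM. Its log2 differences were 1.11 ± 0.201 and 1.03 ± 0.191. Its flanking genes Wdr81 and Prpf8 differed by -0.01 ± 0.0855 and -0.09 ± 0.0621 in Control mice. Pitpnm3 had 9.69, 15.4, 12.9, 14.9, and 16.1 CPM in WT Control and from 20.3 to 42.7 CPM in KO Control. In WT T1D it was at 0.849 CPM in A3905, at 1.27 CPM in A3906, and between 9.04 and 10.4 CPM in the other 4 mice, and KO T1D mice ranged from 16.4 to 41.7 CPM. Its lowest KO mouse, at 16.4 CPM, was just above its highest WT mouse, at 16.1 CPM. The log2 difference was 1.04 ± 0.399 in Control mice and 1.86 ± 0.392 in T1D mice, and the latter was 1.35 ± 0.227 without A3905 and A3906.

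Spns3 and Slc46a1, both membrane transporters, and Alox15 were higher in KO bone with closer or overlapping ranges. Spns3 ranged from 14.6 to 18.0 CPM in WT Control, from 8.91 to 18.6 CPM in WT T1D, from 19.6 to 25.8 CPM in KO Control, and from 20.7 to 32.9 CPM in KO T1D, so that all KO mice were above all WT mice. Its log2 differences were 0.45 ± 0.149 and 0.72 ± 0.142, and the second was 0.55 ± 0.129 without A3905 and A3906. Slc46a1 had 6.08, 5.10, 5.82, 6.71, and 9.09 CPM in WT Control, from 2.78 to 6.31 CPM in WT T1D, from 7.38 to 11.8 CPM in KO Control, and from 6.69 to 10.005 CPM in KO T1D. Its ranges overlapped in Control mice through WT mouse A3907 and not in T1D mice. Its log2 differences were 0.42 ± 0.185 and 0.83 ± 0.178, and the second was 0.61 ± 0.168 without A3905 and A3906. Alox15 had 46.6, 90.6, 87.1, 62.5, and 81.7 CPM in WT Control and ranged from 41.6 to 66.6 CPM in WT T1D, from 69.3 to 185 CPM in KO Control, and from 77.2 to 194 CPM in KO T1D. Control groups overlapped, and T1D groups did not. Its log2 differences were 0.74 ± 0.250 and 1.24 ± 0.240. Alox12e, the next lipoxygenase gene on its centromere side, had differences of 0.97 ± 0.368 and 0.95 ± 0.341 with a mean of 2.25 CPM, and its groups overlapped.

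Smg6, the decay endonuclease, was slightly lower in KO bone. It ranged from 47.8 to 59.2 CPM in WT Control, from 51.3 to 63.4 CPM in WT T1D, from 41.3 to 48.7 CPM in KO Control, and from 42.1 to 53.5 CPM in KO T1D. The groups overlapped in both backgrounds. Its log2 differences of -0.24 ± 0.0769 and -0.31 ± 0.0735 were the smallest of the 9 in size.

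In Control mice, 4 members (Ccdc92b, Xaf1, Vtn, and Tlcd2) passed an adjusted p of 0.05 in edgeR for KO against WT, where 4 of 14364 genes did (0.0278%). The count was 3 for 19 of the 23 mice left out singly, and Tlcd2 passed in 4 of those 23 fits. In T1D mice, 6 members passed, with Spns3 and Alox15 in addition, where 13 genes did (0.0905%). The 7 of these 13 that were no members were Adam33, Cd36, Chek2, Ear1, P2ry14, Spata13, and Tmem184c, on other chromosomes. The count of members in T1D mice was 3 to 9 when single mice were left out. It was 3 for 13 of the 23 mice and 9 without WT T1D mouse A3909, where 95 genes passed. Since the members had been chosen on this contrast, nothing is read from these counts. Likewise, 6 members had KO and WT mice that did not overlap in Control, among 88 such genes (0.613%), and 8 did in T1D, among 124 (0.863%). Over all 12 KO and 11 WT mice, 5 genes of the table did not overlap (0.0348%), and all 5 were members: Vtn, Pitpnm3, Xaf1, Spns3, and Ccdc92b. The differences were in the same direction in both backgrounds for all 9, which the choice of members may have fixed.

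**Figure D3:**
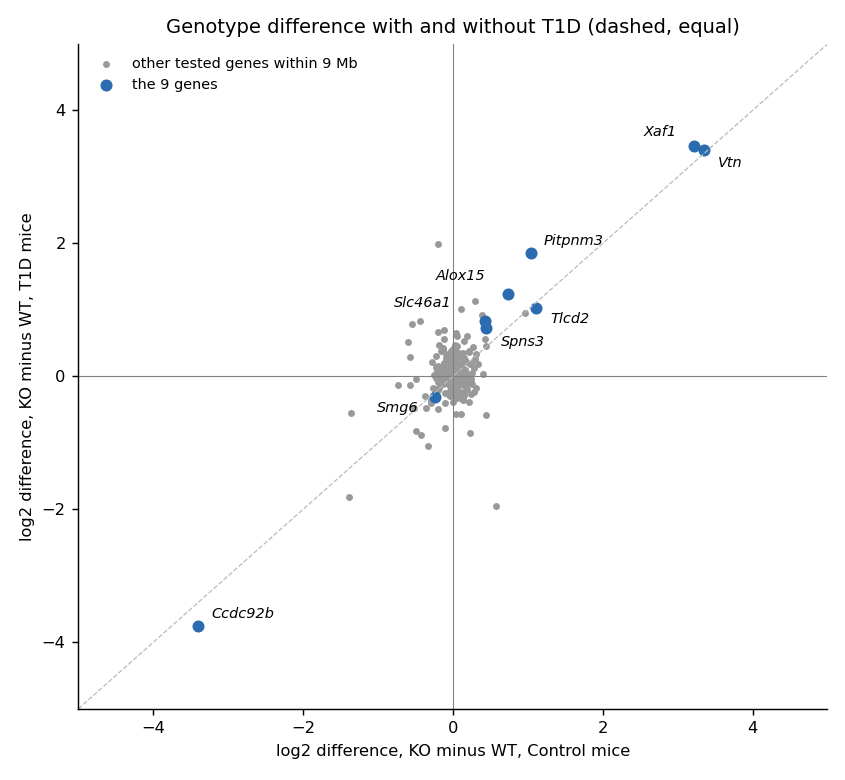
KO minus WT difference in log2 in Control mice (x axis) and in T1D mice (y axis) for the 287 tested genes within 9 Mb of Sarm1; blue points are the 9 genes, and the dashed line marks equal differences. Xaf1, Vtn, and Ccdc92b lie near the line and far from the origin, and Smg6 lies within the cloud of other genes.

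The genes between and around the members are those left after the members had been picked on this same contrast, so their values are a description and say nothing about how many genes of the window differ. Of these 278 tested genes within 9 Mb, 0 passed the threshold in Control mice and 0 in T1D mice. Their median absolute log2 difference was 0.102 and 0.144, against 0.0937 and 0.138 in the 14077 tested genes outside the window. Over the whole table, 690 and 2454 genes had an unadjusted p under 0.05. With DESeq2, 11 genes within 9 Mb passed in T1D mice, the 9 members among them, and 228 outside the window. Of the 278 genes, 3 had ranges that did not overlap in Control (Elp5, 4933427D14Rik, and Fam222b) and 2 in T1D (Acadvl and Glod4), and 0 did so over all mice. A log2 difference beyond 0.5 with the same sign in both backgrounds was found in 3 of the 278. These were Alox12e, Inca1 (-1.38 ± 0.539 and -1.82 ± 0.529 at a mean of 0.515 CPM), and Tbx4 (-1.36 ± 0.626 and -0.56 ± 0.590 at 0.716 CPM), named after their values were seen. The tested genes next to the members, ordered by distance from Sarm1, numbered 16. Among them were Sarm1 itself, and Srr and Hic1, which lie within Smg6. Their differences ran from -0.552 in Sarm1 to 0.966 in Control mice, and the next lowest was -0.182 in Cluh. In T1D mice they ran from -0.294 in Hic1 to 1.01 in Slc13a5 beside Xaf1. Slc13a2, on the centromere side of Slc46a1, was not among the 16 and had 0.194 ± 0.693 and 0.613 ± 0.687. The 10 tested non-members closest to Sarm1, from Tmem199 at 0.0092 Mb to Aldoc at 0.1425 Mb, all overlapped between KO and WT mice.

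Gene families on the same stretch of chromosome 11 were then examined, with lists chosen with earlier results of these data known. Of 10 tested CC chemokine genes, which recruit leukocytes, 0 passed for genotype in either background (6 higher and 4 lower in Control, 7 higher and 3 lower in T1D, median log2 0.0929 and 0.359). Ccl8 had differences of 0.295 ± 0.343 (SE) and 1.14 ± 0.344 at a mean of 2.14 CPM. Ccl12 had -0.204 ± 0.530 and 1.99 ± 0.581 at a mean of only 0.636 CPM. Ccl6, the highest in level at 206 CPM, had 0.237 ± 0.197 and -0.102 ± 0.187. Of 7 Slfn genes, which restrain growth and viral replication in immune cells, 0 passed, with medians of 0.0501 and 0.101 and the largest difference in T1D in Slfn8 at 0.474, which was 0.185 without A3905 and A3906. The medians over all tested genes were -0.000297 and 0.00620.

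Genes that work with the members were compared in the same way. Of 14 tested interferon-stimulated genes other than Xaf1, 0 passed for genotype. Their median log2 difference was 0.180 in Control mice and 0.554 in T1D mice. Xaf1 had 3.22 and 3.46, but it had been chosen for its genotype difference, so nothing is read from this gap. The part of the interferon response in the Xaf1 difference was not tested. In WT mice with T1D, 2 of the 14 fell in edgeR, Ifit3 (-1.08, adjusted p = 0.0460) among them, where 2.33% of all tested genes passed, and 12 of 14 were negative. Without A3905 and A3906, which had the lowest sums of this list at 385.4 and 479.0 CPM, 0 of the 14 passed, 12 were negative, and Ifit3 had -0.75 ± 0.235 (adjusted p = 0.296). The median genotype difference of the list in T1D mice was then 0.260. Oas1a and Rtp4 had values of -0.912 and -0.890 with all mice that did not pass. Xiap, whose protein XAF1 opposes, differed between genotypes by -0.064 ± 0.0602 (SE) in Control mice and 0.012 ± 0.0575 in T1D mice. Itgav, the integrin subunit through which cells bind vitronectin, differed by -0.29 ± 0.167 in Control mice and -0.12 ± 0.160 in T1D mice (0.17 ± 0.135 without A3905 and A3906), and its partner Itgb3, of the osteoclast receptor, by -0.047 ± 0.140 and -0.033 ± 0.133 (-0.22 ± 0.115 in T1D without those 2 mice), and neither passed. The 6 other lipoxygenase genes gave 0 calls and medians of 0.0577 and 0.0269. Among 9 other genes of nonsense-mediated decay, 0 passed, and Upf3b had the largest difference in T1D mice at -0.426, and -0.268 without A3905 and A3906. The 5 other phosphatidylinositol transfer genes ranged from -0.119 to 0.0515 in Control mice, and Pitpna, 2.84 Mb from Sarm1, differed by -0.102. Spns2, next to Spns3, differed by -0.010 in Control mice and 0.340 in T1D mice, and 0.232 in T1D without the 2 mice. The 6 folate transport genes and the 5 TLC domain genes gave 0 calls, and Tlcd1, 0.289 Mb from Sarm1, differed by 0.048 and -0.190, the latter -0.038 without them. Ccdc92, the relative of Ccdc92b, differed by 0.401 and -0.085, the latter -0.282 without them.

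Several members varied between mice of the same group together with other genes. After the group mean was taken from each value of log2 (CPM + 0.5), Alox15 was most like Ear1 (Pearson r = 0.917), Ear6 (0.916), and Prg2 (0.912), all granule genes of eosinophils, over 23 mice and against 13306 genes. Xaf1 was most like Oas3 (0.900), H2-Ab1 (0.886), and Ifi44 (0.883), and Pitpnm3 like Col15a1 (0.974), Gng4 (0.971), and Fras1 (0.969). Spns3 was most like Jakmip1 (0.867), Bhlha15 (0.859), and Bfsp2 (0.847), and Slc46a1 like Dcakd (0.888), Serf2 (0.866), and Anxa6 (0.853). Vtn (Gpm6b, 0.805), Ccdc92b (Tfam, 0.804), Tlcd2 (Igfbp2, 0.743), and Smg6 (C530008M17Rik, 0.693) had weaker companions. These correlations are descriptions, and their points share libraries and depth. Over the 21 mice without A3905 and A3906, r fell to between 0.640 and 0.727 for the 3 companions of Xaf1, to between 0.835 and 0.865 for those of Pitpnm3, and to between 0.735 and 0.829 for those of Slc46a1, while it was 0.919 to 0.939 for those of Alox15. Against the summed level of its list, r went from 0.955 to 0.791 for Pitpnm3 and the osteoblast markers, from 0.878 to 0.688 for Xaf1 and the interferon-stimulated genes, and from 0.727 to 0.516 for Slc46a1 and the osteoblast markers. Between members, r was highest for Pitpnm3 and Slc46a1 (0.765) and for Pitpnm3 and Xaf1 (0.752), all of them low in A3905 and A3906, and without those mice it was 0.649 and 0.0784.

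**Figure D4:**
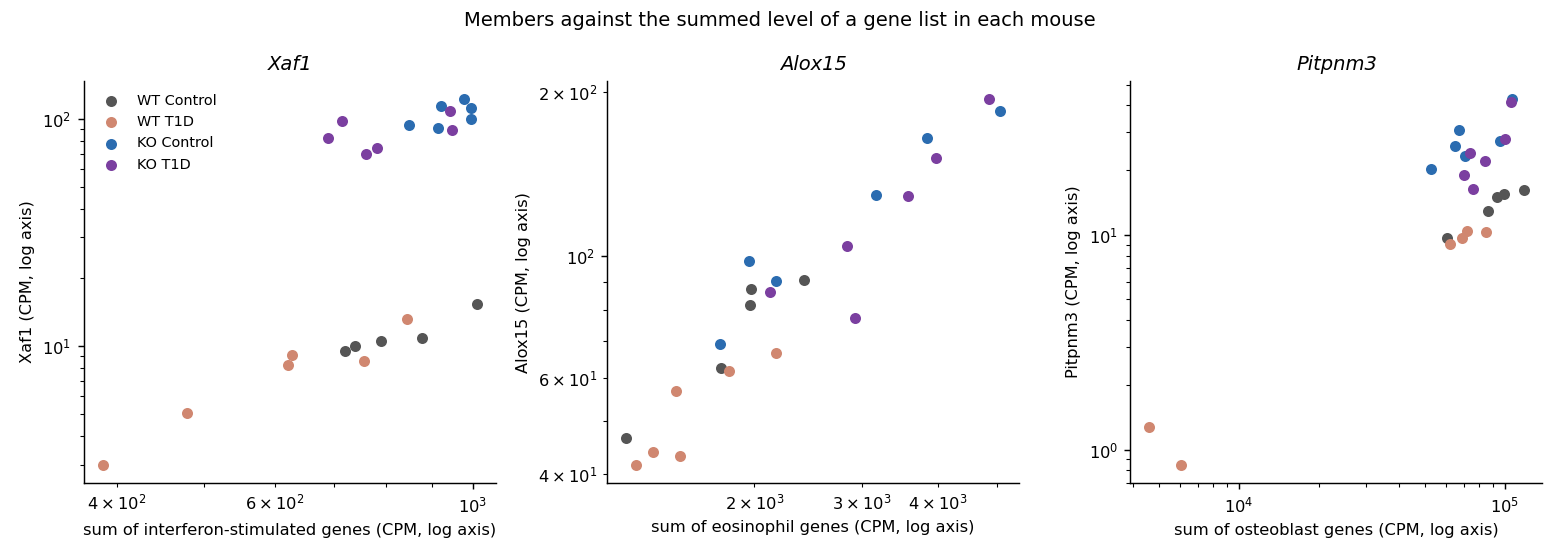
Level of Xaf1, Alox15, and Pitpnm3 in each mouse (y axes, CPM, log scale) against the summed level of the interferon-stimulated, eosinophil, and osteoblast gene lists (x axes, CPM, log scale), coloured by group. KO and WT mice form separate bands for Xaf1 and, by less, Pitpnm3, and lie along 1 band for Alox15.

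The levels of Xaf1, Pitpnm3, Slc46a1, and Alox15 were then set against the list that moved with them. Xaf1 made up a median of 13.3 CPM per 1000 CPM of 14 interferon-stimulated genes in WT Control and 12.4 in WT T1D, against 111 in KO Control and 105 in KO T1D, with no overlap between genotypes (7.79 to 15.6 in WT mice and 92.0 to 136 in KO mice). Pitpnm3 made up 0.156 and 0.142 CPM per 1000 CPM of 8 osteoblast markers in WT Control and WT T1D, against 0.392 and 0.275 in KO Control and KO T1D, and here the WT T1D range (0.121 to 0.277) overlapped that of KO T1D (0.216 to 0.394). The overlap came from A3906, and the other 5 WT T1D mice reached 0.145, below every KO T1D mouse. Alox15 made up 37.8 and 32.4 CPM per 1000 CPM of 9 eosinophil markers in WT Control and WT T1D and 41.3 and 37.4 in KO Control and KO T1D, and the ranges overlapped. The eosinophil markers themselves had a median sum of 1968 CPM in WT Control, 1500 CPM in WT T1D, 2668 CPM in KO Control, and 3246 CPM in KO T1D. All 9 had a positive KO minus WT difference in both backgrounds, and 1, Ear1, passed in T1D mice (1.27, adjusted p = 0.0489, and 1.23 with adjusted p = 0.221 without A3905 and A3906). Without those 2 mice, 8 of the 9 were positive in T1D mice, and Ccr3 had -0.088 ± 0.144. Since the members had been chosen for their genotype difference, separation of the genotypes in these ratios is a description. The part of eosinophil RNA in the Alox15 difference was not tested, nor was the part of the listed genes in the differences of the other members.

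Diabetes was a comparison that had not itself been used to choose the genes. It shares its libraries with the genotype differences that were used, so its values and adjusted p values are not independent of that choice. With all mice, the WT change of each member had the opposite sign to its genotype difference. In WT mice, T1D raised Ccdc92b by 0.55 ± 0.104 (SE) in log2, a 1.46-fold increase (edgeR adjusted p = 0.0236). In CPM, though not in TPM, all 6 WT T1D mice were above all 5 WT Control mice. Ccdc92b was the 1 member to pass, where 334 of 14364 genes did (2.33%). The change was 0.50 to 0.58 when single mice were left out. The call was lost, with adjusted p up to 0.0803, without WT Control mouse A3767, A3903, A3904, or A3907 or WT T1D mouse A3905, and without both A3905 and A3906 (0.56 ± 0.117, adjusted p = 0.104, with 0 genes called in the whole table). In TPM, Ccdc92b went from 8.29 ± 0.887 (n = 5) to 10.1 ± 1.45 (n = 6), and the ranges overlapped. They were 7.15 to 9.59 TPM in WT Control and 8.59 to 12.49 TPM in WT T1D, with A3905 and A3906 the lowest WT T1D mice. Erythroid markers moved in the same comparison, with 11 of 11 higher and 7 passing at a median of 0.644, and their summed level went from a median of 77269 CPM in WT Control to 127216 CPM in WT T1D. Without A3905 and A3906, 11 of 11 were higher, 0 passed, and the median was 0.413. Their part in the Ccdc92b value was not tested. In KO mice, the difference was 0.20 ± 0.123 (adjusted p = 1.00), at about 40 counts per library.

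**Figure D5:**
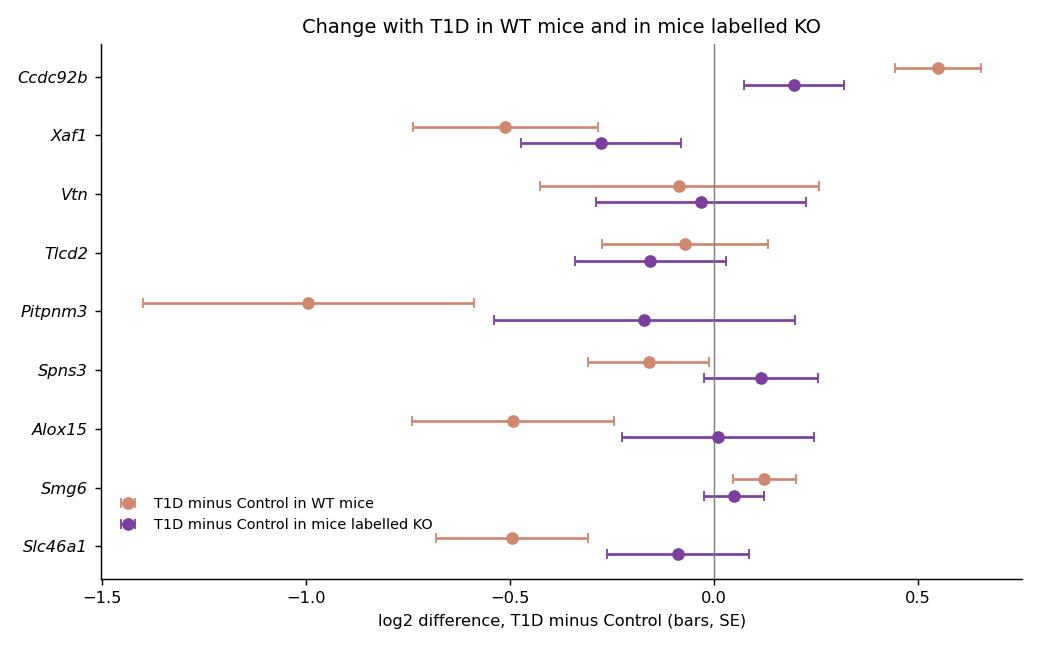
T1D minus Control difference in log2 (x axis) of each of the 9 genes (y axis) in WT mice and in mice labelled KO; points are edgeR estimates, and bars are SE. Ccdc92b in WT mice, at 0.55, was the 1 value that passed the adjusted threshold, and most KO values lie near 0.

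The remaining members did not pass for T1D in WT mice. Pitpnm3 had the largest value at -0.99 ± 0.406 (adjusted p = 0.152), and it was -0.49 ± 0.232 without A3905 and A3906. Xaf1 had -0.51 ± 0.226 (adjusted p = 0.184), Slc46a1 -0.50 ± 0.187 (adjusted p = 0.123), and Alox15 -0.49 ± 0.248 (adjusted p = 0.244). Without A3905 and A3906, Xaf1 had -0.20 ± 0.162 and Slc46a1 -0.28 ± 0.174. The osteoblast markers, low in those 2 mice, had a median change of -0.766 in WT mice with T1D, and 2 of 8, Runx2 and Ibsp, passed. Without A3905 and A3906 the median was -0.373, 8 of 8 were negative, and 0 passed, with Runx2 at -0.42 ± 0.120 and Ibsp at -0.62 ± 0.142 (adjusted p = 0.286 and 0.149). Their part in the values of Pitpnm3 and Slc46a1 was not tested. Vtn, Tlcd2, and Spns3 had -0.09 ± 0.341, -0.07 ± 0.203, and -0.16 ± 0.149, and Smg6 had 0.12 ± 0.0770. On TPM with limma, which moved the median of all genes by -0.240, 6 members passed, where 35.9% of all tested genes did: Ccdc92b higher, and Xaf1, Pitpnm3, Spns3, Alox15, and Slc46a1 lower.

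In KO mice, 0 members passed for T1D, and 0 genes of the table did (0.0%) in edgeR, DESeq2, or limma on TPM, with 452 genes at an unadjusted p under 0.05 in edgeR. The KO values ranged from -0.28 ± 0.197 in Xaf1 to 0.20 ± 0.123 in Ccdc92b. Averaged over the genotypes, 0 members passed in edgeR, where 16 genes did (0.111%), and DESeq2 passed 1, Ccdc92b (0.37, adjusted p = 0.0125, against 0.0671 in edgeR), of 249 genes. The interaction of genotype and diabetes passed in 0 members and 0 genes (0.0%) in edgeR and DESeq2, with 1467 genes at an unadjusted p under 0.05 in edgeR. Choosing genes that differed in both backgrounds favours a small interaction. The interaction was -0.35 ± 0.161 in Ccdc92b (adjusted p = 0.480), 0.82 ± 0.548 in Pitpnm3 (0.591), 0.50 ± 0.342 in Alox15 (0.596), and 0.24 ± 0.300 in Xaf1 (0.796).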

How the data were processed

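The authors deposited 2 tables, 1 of RSEM counts given as unnormalized whole numbers and 1 of TPM values, both made by the sequencing provider. Reads were paired-end on DNBSEQ, from an oligo dT library with dUTP strand marking. SOAPnuke had removed low-quality reads, and HISAT and Bowtie2 had placed the rest on GRCm38.p6. None of these steps was repeated.

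Each mouse is 1 library, grouped by its label. The groups share no mouse number, and no block was fitted. A gene needed 10 counts or more in 5 or more mice, which left 14364 of 67228, and these entered edgeR 4.0.16 in R 4.3.3 (TMM, quasi-likelihood test, 4 group means over all 23 mice, Benjamini-Hochberg over all tested genes, threshold 0.05). TPM values were used for levels between genes and in limma 3.58.1 on log2(TPM + 1) or log2(TPM + 0.1). DESeq2 1.42.0 was an alternative. Tables and plots used Python 3.11.15, pandas 2.3.3, numpy 2.4.6, and matplotlib 3.10.9. The fit was tested on simulated data.

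The 9 members and all gene lists were chosen with earlier results of these data known. For KO against WT, no p is given for a member. Other genes named are Sarm1, the 3 genes most like each member among those with a mean of at least 1 CPM, the genes of each list with the largest T1D change in WT mice or the largest genotype difference, flanking genes, and genes marked as named after their values were seen. Positions, overlaps, and promoters came from RefSeq for GRCm38.p6. Depth limits the low genes Sarm1 and Vtn, and total counts were similar between groups. Intervals between mice include technical spread. Results for some genes of these lists are not reported here.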

Additional observations from a re-analysis of the deposited data

Results flagged for a closer look

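In 3 of 40 sets of 1 gene in 1 group, a single mouse lay far from the others by Dixon's criterion, which chance meets in about 1 of 20 sets. Ccdc92b was at 1.21 CPM in KO Control mouse A3766, where the next mouse had 2.05 CPM. Xaf1 was at 15.3 CPM in WT Control mouse A3907, where the next had 10.8 CPM. Spns3 was at 32.9 CPM in KO T1D mouse A3675, where the next had 23.6 CPM. None of these values lay within the range of the other genotype, and their cause was not tested.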

How the results depend on the processing

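DESeq2 changed the size factors and the test together, limma on TPM changed the input, the scaling, and the test together, and the other alternatives changed 1 choice each. The one without both A3905 and A3906 was chosen after seeing the data. No paired analysis was possible because the groups share no mouse numbers. Under every alternative the KO minus WT difference of each of the 9 genes kept its direction in both backgrounds. The number of called genes depended on the setting. For KO against WT in T1D mice, 13 genes passed in edgeR, 239 with DESeq2, 5 with median-ratio size factors, 3 with no filter, 1166 and 1185 with limma on log2(TPM + 1) and log2(TPM + 0.1), 1540 in the A36 to A39 mice alone, and 4 without A3905 and A3906. For T1D in WT mice, 334 passed in edgeR, 1002 with DESeq2, 88 with no filter, 5154 and 5173 with limma, 2211 in the A36 to A39 mice, and 0 without A3905 and A3906. Averaged over genotypes, 16 passed in edgeR, 249 with DESeq2, 1106 and 951 with limma, 536 in the A36 to A39 mice, and 4 without A3905 and A3906. The cause was not tested. These last 2 settings use fewer mice, and they treat A3905 and A3906 in opposite ways. Leaving out mice with A17 numbers removes 3 mice from WT T1D, and only A3905, A3906, and A3909 remain there. Counts from that setting therefore rest more on A3905 and A3906 and are no check independent of them.

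The share of tested genes within 9 Mb that passed for KO against WT in Control mice was 1.39%, and it was 0.906% with no filter and 2.17% within 5 Mb. In T1D mice it was 2.09%, and it was 3.83% with DESeq2, 1.05% with median-ratio size factors, 0.906% with no filter, 13.6% and 13.2% with limma, 13.0% in the A36 to A39 mice, 1.39% without A3905 and A3906, and 1.05% to 3.48% when 1 mouse was left out. Over all tested genes, the share was 0.0278% in Control mice and 0.0905% in T1D mice. The T1D share was 1.66% with DESeq2, 8.12% and 8.25% with limma, and 10.8% in the A36 to A39 mice. The window holds the members chosen on this contrast, so nothing is read from these shares. Of the 9 members, 6 passed for KO against WT in T1D mice, 3 with median-ratio size factors, 3 with no filter, and 3 to 9 when 1 mouse was left out. The 9 came without WT T1D mouse A3909, where 95 genes passed. For T1D in WT mice, 1 member passed, 6 and 5 with limma, 4 in the A36 to A39 mice, 0 without A3905 and A3906, and 0 to 1 when 1 mouse was left out. Averaged over genotypes, 0 members passed, 1 with DESeq2, 1 with limma on log2(TPM + 1), 2 in the A36 to A39 mice, and 0 to 1 when 1 mouse was left out, with 1 only without WT T1D mouse A3909. Of all tested genes, 0.111% passed for this average, 1.73% with DESeq2, 7.7% with limma on log2(TPM + 1), and 3.75% in the A36 to A39 mice. Without A3909, 211 genes passed.

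The T1D values that changed sign were small ones. Without A3905 and A3906, T1D minus Control in WT mice was 0.19 in Vtn and 0.010 in Spns3, the average over genotypes was 0.075 in Vtn and 0.060 in Spns3, and the interaction was -0.078 in Xaf1, -0.22 in Vtn, and 0.035 in Tlcd2. With limma on log2(TPM + 1) and log2(TPM + 0.1), Smg6 had -0.15 and -0.16 in WT mice and -0.066 and -0.070 on average, Alox15 had -0.0254 and -0.0257 in KO mice, and the interaction was 0.084 and 0.14 in Tlcd2 and 0.17 and 0.18 in Smg6. When 1 mouse was left out, T1D minus Control in WT mice ran from -0.49 to 0.13 in Vtn and from -0.19 to 0.11 in Tlcd2. In KO mice it ran from -0.12 to 0.040 in Vtn, from -0.013 to 0.17 in Spns3, from -0.17 to 0.16 in Alox15, and from -0.16 to 0.0075 in Slc46a1. The average ran from -0.27 to 0.045 in Vtn and from -0.088 to 0.031 in Spns3, and the interaction from -0.17 to 0.45 in Vtn and from -0.27 to 0.030 in Tlcd2. Depth limits Sarm1 in all mice and Vtn in WT mice most.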

Other observations

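Trpv3, an ion channel gene 5.17 Mb from Sarm1 on the centromere side (chr11:73267489-73300368), did not pass the filter on low counts and was noticed after the values were seen. It had 0 counts over the 12 KO mice and 36 counts over the 11 WT mice, with 0 to 8 counts per WT mouse and 2 WT mice at 0. Of the 196 genes within 9 Mb that were not tested, 44 had any count. No test was made, because the gene was picked for this pattern.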
